A study of Homo sapiens with 12 samples.

Results

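The replication-dependent histone genes are the genes whose proteins package newly copied DNA. They were taken as all rows of the deposited HEK293 table whose Ensembl identifier maps to a protein-coding GENCODE gene named H2AC, H2BC, H3C or H4C with a number, or H1-1 to H1-6. Of the 26058 genes listed, 56 met this rule: 5 encode H1, 14 H2A, 15 H2B, 10 H3 and 12 H4. A further 14 genes with such names have no row and were not analysed here. RNA was sequenced after removal of ribosomal RNA from HEK293 cells, a human embryonic kidney line (WT), and from a HEK293 line whose PRKAA1 and PRKAA2 genes had been targeted by CRISPR (AMPK KO). These genes encode the catalytic subunits of AMPK, a kinase that responds to low cellular energy. All cells were held for 24 h in low serum and all received the solvent DMSO or cordycepin, an adenosine analogue without a 3′ hydroxyl group that can stop the extension of RNA. Each line had 3 treatments: DMSO only, DMSO with epidermal growth factor (EGF) added for the last 30 min, and 25 µM cordycepin from 20 min before EGF until harvest at 50 min. The EGF concentration is given as 15 with a unit that differs between sources. There were 12 libraries, 2 per group, numbered 2 and 3 as in the labels, and nothing states how many clones the AMPK KO line came from.

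Replication-dependent histone genes lie in tight clusters and are transcribed mainly in S phase, when the factor NPAT acts at their promoters. Their mRNAs are the only known animal mRNAs that end in a conserved stem-loop in place of a poly(A) tail. The stem-loop is bound by SLBP, the end is cut with the help of the U7 small nuclear ribonucleoprotein, and the mRNA is degraded rapidly when DNA synthesis stops. H2A, H2B, H3 and H4 form the core of the nucleosome and H1 binds the linker DNA. Libraries made by removing ribosomal RNA, as here, keep RNAs with no poly(A) tail.

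The stem-loop was searched for in the 200 bases after each stop codon, since it sets these mRNAs apart and was not used to choose the genes. It was found in 55 of 56 genes, 22 to 67 bases after the stop codon. H2BC12L, the 1 member on chromosome 21, had none. The sites below (GENCODE release 44 positions, GRCh38, each on the strand of its gene, with the 16-base stem-loop in capitals) show the most frequent form, the form of the gene with the highest level, both H4 forms and 2 rare loops.
H2AC8 (chr6:26217412-26217437, +): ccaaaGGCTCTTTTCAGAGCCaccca
H2BC12 (chr6:27146361-27146386, -): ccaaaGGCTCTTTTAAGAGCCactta
H4C4 (chr6:26188710-26188735, -): ccaacGGCCCTTTTCAGGGCCaccta
H4C14 (chr1:149833027-149833052, +): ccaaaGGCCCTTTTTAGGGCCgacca
H2BC10 (chr6:26273387-26273412, +): ccaaaGGCTCTTCTAAGAGCCaccca
H3C6 (chr6:26225591-26225616, +): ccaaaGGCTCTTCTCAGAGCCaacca
The form of H2AC8 stood in 30 genes and that of H2BC12 in 8. All 12 H4 genes had the stem that H4C4 and H4C14 share, with the loop of H4C4 in 8 genes and that of H4C14 in 4. No gene of another family had both arms of that stem. The loops of H2BC10 and H3C6 were each found in 1 gene.

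The members lie on chromosome 6 (41 genes), chromosome 1 (13) and, for H4C16 and H2BC12L, chromosomes 12 and 21. Some of the levels belong to groups of copies rather than to genes. Between 99.7% and 100% of all 150-base windows of H2AC18 and H2AC19 also occur in another annotated histone transcript, and H3C14 with H3C15, H4C14 with H4C15, and H4C11 with H4C12 share 88.8% to 100% of theirs. H2AC13 and H2AC14 share 52.9% and 56%. Of the 56 members 42 share no such window. The levels of H2AC18 and H2AC19 differed by a factor of 0.924 to 1.12 over the 12 libraries, so each pair is given as uncertain between its copies. Counts of members below include each copy of a pair, although copies are not fully separate measurements. A gene on the same strand overlaps 15 members and a gene on the other strand 12, and whether the counting used the strand is not stated.

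The libraries held 3732480 to 24553081 reads on genes whose reads could be recovered. WT DMSO replicate 3 was the shallowest, and the next held 11723913. PRKAA1 had 11.2 to 21.9 RPKM (reads per kilobase of exon, scaled to library depth, as deposited) in WT libraries and 7.03 to 8.51 RPKM in AMPK KO libraries (log2 fold change -0.96, limma adjusted p 0.00201), and PRKAA2 had 6.78 to 12.1 and 5.39 to 7.43 RPKM (-0.48, adjusted p 0.0547). Of 7 genes known from HEK293 cells, VIM, KRT8, KRT18 and NEFL had at least 1 RPKM in all 12 libraries, PAX2, LHX1 and NEFM did not, and the 7 together summed to 88.5 to 140 RPKM. Of 8 markers of other cell types, PTPRC and COL1A1 are listed, and their sum was 0.383 to 1.24 RPKM. Replicates of a group did not always agree on the histone genes. The median member was 0.39 higher on the log2 scale in replicate 3 than in replicate 2 of both cordycepin groups and 0.36 higher in AMPK KO DMSO, while the median of all genes moved by at most 0.03 in each group. The members were lowest in AMPK KO cordycepin+EGF replicate 2, with a median of -0.53 against their own means over the 12 libraries. In bulk RNA, fewer cells in S phase and less histone RNA per cell cannot be told apart.

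**Figure D1:**
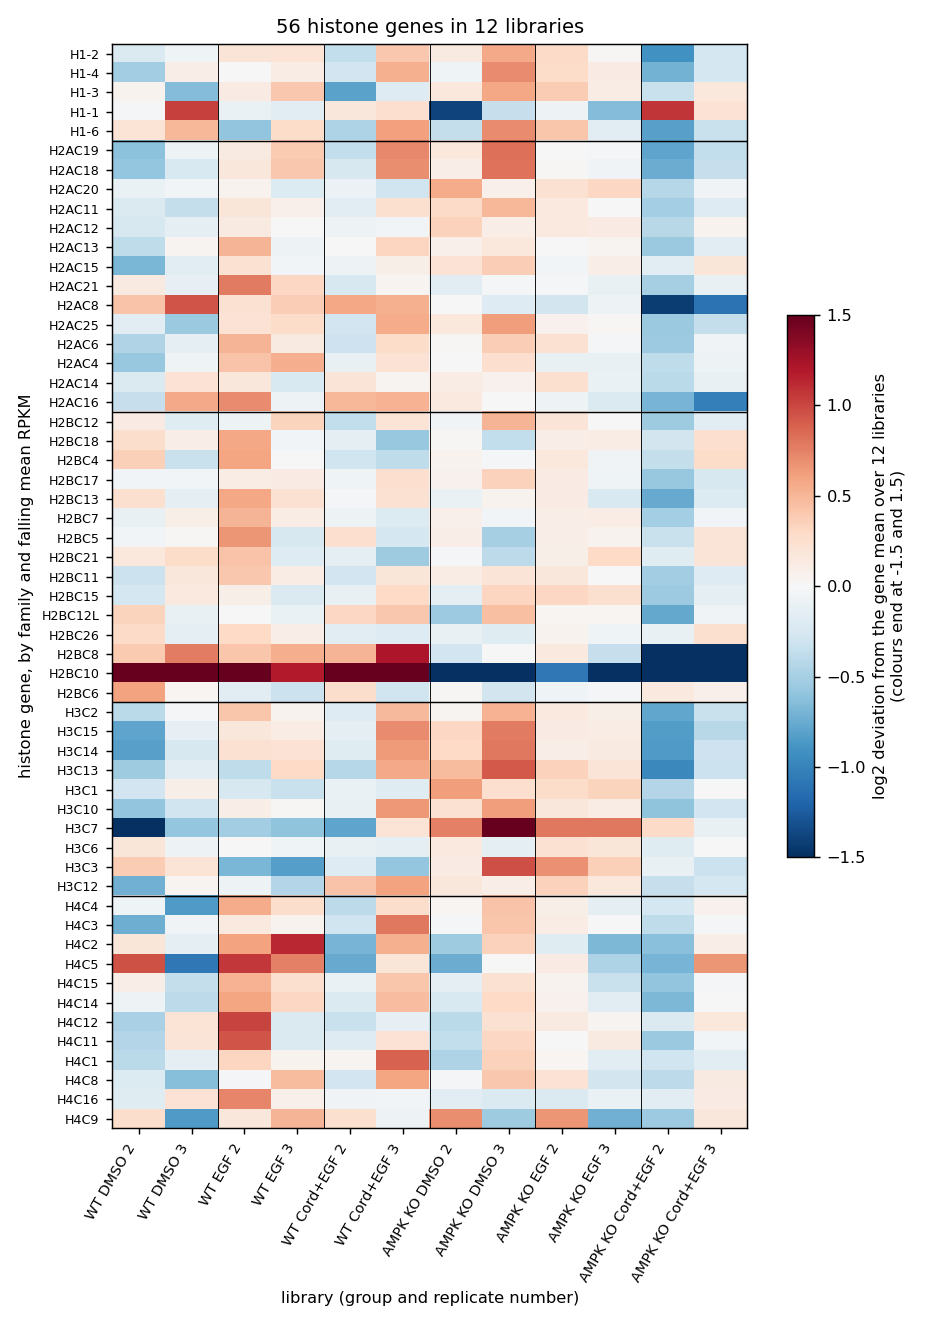
Deviation of each of the 56 histone genes (rows, by family and falling mean RPKM) from its own mean over the 12 libraries (columns, by group and replicate), on the log2 scale. Most rows are blue in AMPK KO cordycepin+EGF replicate 2, and H2BC10, H2BC8, H2AC8 and H3C7 change colour between the WT and AMPK KO columns.

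The histone genes were far above most genes in level and unequal among themselves. The median member had a mean of 77.6 RPKM over the 12 libraries, against 2.61 RPKM for the median listed gene. The mean was at least 100 RPKM for 22 members and under 2 RPKM for 6. H2BC12 was the highest with 1412 RPKM, and H3C12 the lowest with 0.584 RPKM, a 2418-fold span. RPKM depends on the exon length counted. In the annotation this length ran from 387 to 5002 bases (median 514) and was long for members with spliced transcripts, of which there were 15. For H2BC4, with 2881 annotated bases, the values gave whole reads with 723 bases instead.

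By family, H2B made up 30.1% of the summed RPKM of the members, H2A 28.4%, H3 20.1%, H1 11.8% and H4 9.54%. H2BC12 alone was 55.4% of the H2B sum. H1-2 was 46.9% of the H1 sum, H3C2 29.4% of H3, H4C4 19.5% of H4 and H2AC19 18.9% of H2A. The summed H3 level was 1266 ± 309 RPKM (SD, n = 2) in WT DMSO, 1830 ± 59.5 in WT EGF and 1892 ± 724 in WT cordycepin+EGF. For AMPK KO cells it was 2319 ± 523, 1800 ± 24.7 and 1078 ± 252 RPKM in the same order. The H3 sum was thus higher in AMPK KO than in WT cells under DMSO, and lower under cordycepin and EGF, with no overlap between the libraries in either case. The H2A sum went the same way, from 1999 ± 231 (WT) and 3028 ± 386 RPKM (AMPK KO) in DMSO to 2494 ± 640 and 1737 ± 336 RPKM in cordycepin+EGF. The summed H2B level varied least, between 2035 ± 440 RPKM in AMPK KO cordycepin+EGF and 2917 ± 36.2 RPKM in WT EGF. The summed H4 level was 692 ± 136, 1123 ± 86.3 and 808 ± 329 RPKM in WT cells and 808 ± 224, 730 ± 100 and 677 ± 205 RPKM in AMPK KO cells. The summed H1 level was 860 ± 129, 1084 ± 54.5 and 1012 ± 397 RPKM in WT cells and 1267 ± 375, 1104 ± 120 and 681 ± 182 RPKM in AMPK KO cells. The sums are given with no test and weigh the high genes most. For H2A under DMSO the sums gave a log2 ratio of 0.60 between the lines. The single H2A genes had a median log2 fold change of 0.42. Of the 14, 11 were higher in AMPK KO cells (51% of all genes) and 10 were higher without overlap (25.3% of all genes).

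**Figure D2:**
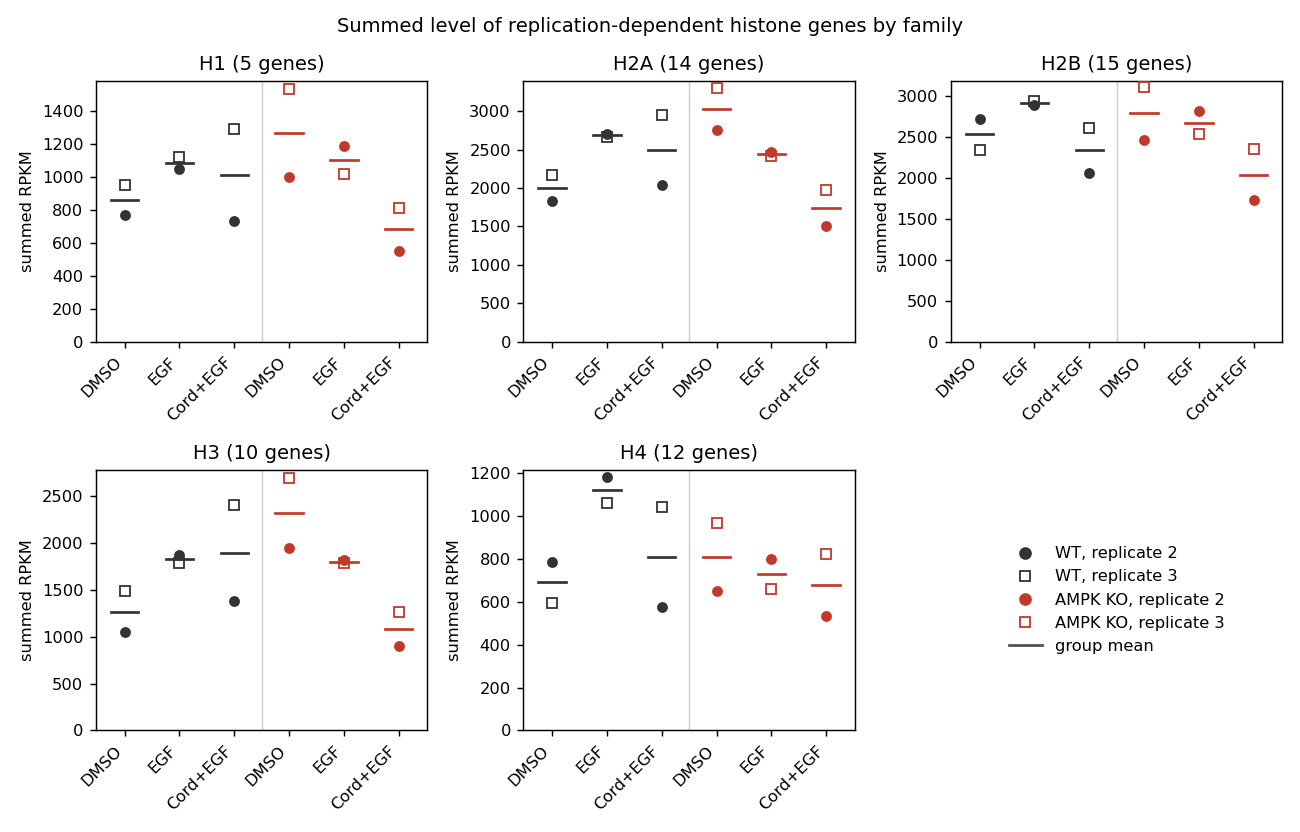
Summed RPKM of each histone family (vertical axis, starting at 0) in the 12 libraries by group (horizontal axis). Filled circles are replicate 2, open squares replicate 3 and bars group means. All 5 sums were higher in both WT EGF libraries than in both WT DMSO libraries, and the H3 sum of AMPK KO cells was lowest with cordycepin and EGF, at 900 and 1257 RPKM.

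The highest members of each family are given by library. H1-2, a linker histone, had 386 and 435 RPKM in WT DMSO, 522 and 537 in WT EGF and 343 and 601 in WT cordycepin+EGF. The AMPK KO values were 498 and 691, 559 and 461, and 234 and 371 RPKM. H1-4 had 296 and 460, 433 and 473, and 342 and 617 RPKM in WT cells, and 412 and 715, 520 and 469, and 252 and 348 RPKM in AMPK KO cells. The replicates of WT cordycepin+EGF and AMPK KO DMSO were far apart for both genes.

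H2AC19, which cannot be told from its copy H2AC18, had 276 and 404, 474 and 573, and 323 and 702 RPKM in the WT groups (DMSO, EGF, cordycepin+EGF), and 479 and 776, 432 and 422, and 239 and 324 RPKM in the AMPK KO groups. H2AC18 had 281 and 360, 481 and 573, and 349 and 681 RPKM in WT cells and 454 and 762, 430 and 408, and 243 and 326 RPKM in AMPK KO cells. H2BC12 had 1499 and 1226, 1326 and 1784, and 1047 and 1588 RPKM in WT cells, and 1336 and 2010, 1591 and 1398, and 927 and 1209 RPKM in AMPK KO cells. Its WT groups overlapped one another, and its AMPK KO cordycepin+EGF libraries were below the 4 other libraries of that line. H2BC18, which shares 6.28% of its windows, had 268 and 241, 340 and 224, and 198 and 151 RPKM in WT cells and 228 and 178, 243 and 245, and 180 and 262 RPKM in AMPK KO cells.

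H3C2 had 363 and 473, 649 and 512, and 412 and 677 RPKM in WT cells and 498 and 710, 537 and 515, and 272 and 374 RPKM in AMPK KO cells. H3C15, a copy of H3C14, had 250 and 401, 496 and 484, and 385 and 715 RPKM in WT cells and 543 and 768, 479 and 475, and 235 and 319 RPKM in AMPK KO cells. H4C4 had 144 and 84.4, 227 and 188, and 113 and 182 RPKM in WT cells and 155 and 209, 163 and 139, and 123 and 156 RPKM in AMPK KO cells. H4C3 had 78.7 and 128, 147 and 140, and 104 and 228 RPKM in WT cells and 131 and 180, 144 and 134, and 98 and 127 RPKM in AMPK KO cells. H3C2 and H3C15 were thus lowest in AMPK KO cordycepin+EGF or WT DMSO, and the H4 genes did not share the low AMPK KO cordycepin+EGF values to the same extent, a difference that was not tested.

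The members varied together over the libraries to different degrees. Over the 12 libraries, the log2 level of a member correlated with the median of the other members with a Pearson r of 0.62 in the median, and 36 of 56 had at least 0.5. H1-2 (0.97), H3C2 (0.96) and H2BC17 (0.93) were closest to the shared pattern. H2BC6 (-0.71), H1-1 (-0.50), H2BC21 (-0.16), H2BC18 (-0.05), H3C3 (-0.03) and H2BC26 (-0.02) were the 6 members with a negative r. H2BC6, H2BC18, H2BC21 and H2BC26 encode H2B, and H1-1, H3C3 and H2BC6 had means of 1.17, 0.914 and 1.33 RPKM. These values describe the 12 libraries, which share cell lines, treatments and depth, and carry no test.

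EGF was compared with DMSO in WT cells to ask how the growth factor alters gene expression. In this comparison 42 of 56 histone genes had a positive log2 fold change, while 52.3% of all 22067 genes tested did. The median of the members was 0.35 and that of all genes 0.02. No histone gene passed limma's test at an adjusted p under 0.05 (0.0227% of all genes did), nor did any with voom on the recovered reads (0.0282% of all genes). At an unadjusted p under 0.05 there were 7 higher and 1 lower, against 6.18% and 3.53% of all genes. With the replicate number as a block over all libraries there were 12 higher and 3 lower, against 6.64% and 3.94% of all genes. The WT EGF libraries lay above both DMSO libraries for 24 members, against 18.7% of all genes, and below them for 4. For the less frequent direction the share of all genes was not computed, here or in the other comparisons of treatments within a line.

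The families were not alike in WT EGF. All 12 H4 genes were on the positive side, with a median of 0.58 and a range of 0.39 to 0.96. H4C4 reached 0.87 (SE 0.304, adjusted p 0.489), the highest of the members whose groups did not overlap. The H2A genes had a median of 0.47, with 11 of 14 positive, and H2AC4 reached 0.81 (SE 0.19, adjusted p 0.428), from 21.4 and 30.6 RPKM in DMSO to 43.8 and 48.4 RPKM in EGF. H3 and H1 had medians of 0.38 and 0.26. The H2B genes had a median of 0.13, with 9 of 15 positive and a highest value of 0.36. H3C3 (-1.05, SE 0.287, adjusted p 0.438) and H1-1 (-0.64, SE 0.449, adjusted p 0.633) were on the negative side. H3C3 rested on 10 and 2 reads in DMSO and 4 and 2 in EGF, and H1-1 on 13 and 8 in DMSO and 18 and 11 in EGF. Without WT DMSO replicate 2 the median of the members was 0.20, and without WT EGF replicate 2 it was 0.18.

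**Figure D3:**
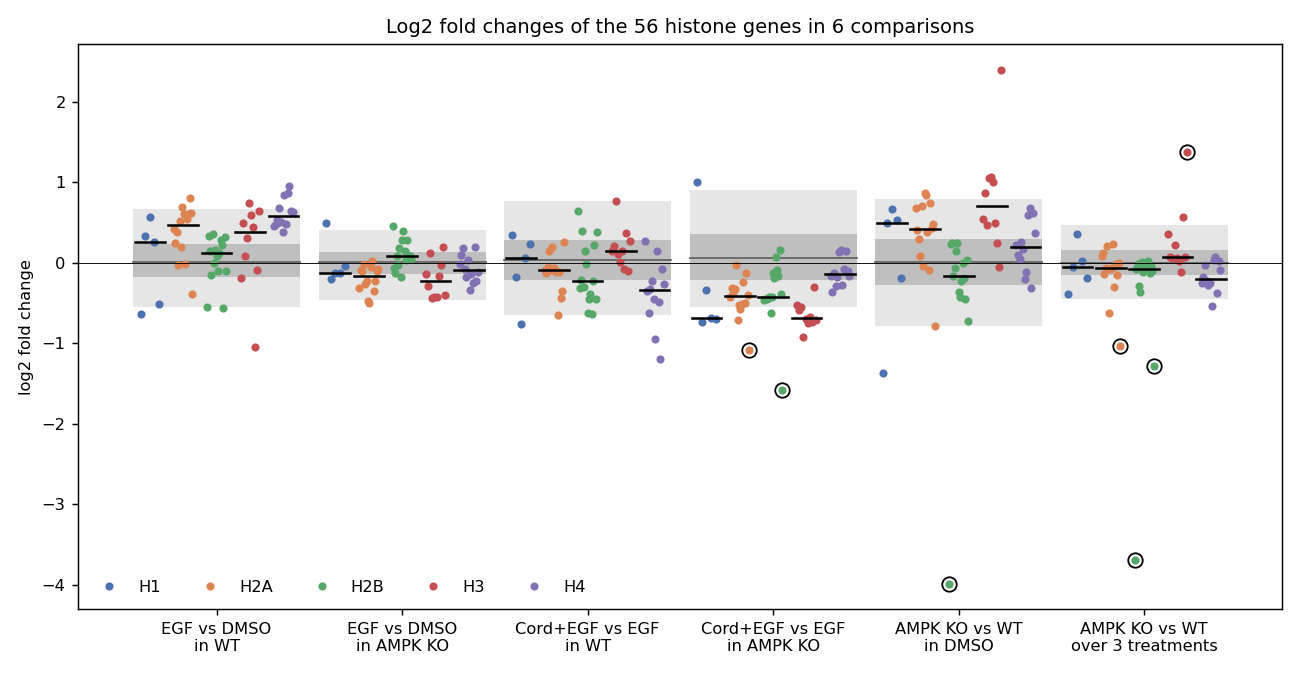
Log2 fold change (vertical axis) of the 56 histone genes in 6 comparisons (horizontal axis), coloured by family, with black bars at family medians and rings at genes with an adjusted p under 0.05. Grey bands hold the middle 50% and 90% of all 22067 genes tested. H4 has the highest family median for EGF in WT cells (0.58), and H1 and H3 the lowest for cordycepin in AMPK KO cells (-0.69 each).

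In AMPK KO cells, EGF gave a negative log2 fold change for 37 of 56 histone genes, against 48.6% of all genes. The median was -0.08 for the members and 0.01 for all genes. No member passed at an adjusted p under 0.05 with limma (0.0136% of all genes did) or voom (0.0188%). None had an unadjusted p under 0.05 either, as 2.42% of all genes did. The AMPK KO EGF libraries lay below both DMSO libraries for 12 members, against 18.7% of all genes, and above both for 5. The 12 were 8 H2A and 4 H3 genes, and they included the copies H2AC18 with H2AC19 and H3C14 with H3C15, which are not separate measurements. H2AC19 had the lowest of these values (-0.50, SE 0.38, adjusted p 1), and H2BC21 the highest among members with no overlap (0.40, SE 0.243, adjusted p 1), from 80.2 and 62.7 RPKM in DMSO to 86.7 and 100 RPKM in EGF. H2A had 13 of 14 genes on the negative side and H2B 11 of 15 on the positive side. Leaving out DMSO replicate 3 of this line gave a median of 0.026 with 25 members negative, and leaving out EGF replicate 3 gave 0.017 with 26 negative.

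The difference between the lines in the EGF effect was tested as an interaction. It was negative (a smaller EGF effect in AMPK KO cells) for 39 of 56 members, against 51.1% of all genes, with a median of -0.40. No member passed (0% of all genes did). At an unadjusted p under 0.05 there were 8 lower and 1 higher, against 5.38% and 3.3% of all genes. All 12 H4 genes were negative (median -0.71), as were 12 of 14 H2A genes (-0.62). The H2B genes had a median of 0.05. H4C2 was the lowest (-1.18, SE 0.632, adjusted p 0.615), with 127 and 102 RPKM in WT DMSO, 173 and 253 in WT EGF, 77.7 and 146 in AMPK KO DMSO and 99.7 and 70.7 RPKM in AMPK KO EGF. The highest of the members with a mean of at least 1 RPKM in the 8 libraries compared was H3C3 (1.03, SE 0.406, adjusted p 0.57), on 2 to 17 reads a library.

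To measure the effect of cordycepin on expression after growth factor, WT cells given both were set against WT cells given EGF. There 35 of 56 members were on the negative side, against 46.5% of all genes, with a median of -0.09 (all genes 0.03). No member passed with limma (0.00453% of all genes did) or with voom (3.5%). At an unadjusted p under 0.05 there were 6 lower and 1 higher, against 7.13% and 8.86% of all genes. Both cordycepin libraries were below both EGF libraries for 13 members, against 24.7% of all genes, and above them for 7. H4 had the lowest family median (-0.34), and H3 the highest (0.14, with 8 of 10 genes positive). H4C5 was lowest (-1.19, SE 0.668, adjusted p 0.394), from 222 and 182 RPKM to 60.7 and 119 RPKM, but its DMSO libraries stood at 203 and 50 RPKM. H2BC10 was highest among members with a mean of at least 1 RPKM and no overlap (0.65, SE 0.349, adjusted p 0.38), from 6.05 and 4.16 to 6.84 and 9.18 RPKM. The median was 0.088 without WT cordycepin+EGF replicate 2 and -0.36 without replicate 3 of that group, with 32 and 12 members positive, so its sign rested on the libraries used.

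The same comparison in AMPK KO cells gave values below 0 for most of the set. The log2 fold change was negative for 50 of 56 members, against 44.9% of all genes, and the median was -0.39 (all genes 0.06). Both cordycepin libraries were below both EGF libraries for 35 members, against 27% of all genes, and above both for 2. The 35 include the copies H2AC18 with H2AC19 and H3C14 with H3C15, which are not separate measurements. H2BC8 and H2AC8 fell at an adjusted p under 0.05 (0.471% of all genes were called in either direction). At an unadjusted p under 0.05 there were 11 lower and 0 higher, against 10.1% and 11.7% of all genes. Without AMPK KO cordycepin+EGF replicate 2, in which the members were lowest, the median was -0.17 and 38 members were negative. Without replicate 3 of that group it was -0.58, with 54 negative. Both calls remained in 2 of the 12 fits that left out 1 library, those without a WT DMSO library, in which 6.16% and 6.12% of all genes were called.

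All 10 H3 genes and all 14 H2A genes were on the negative side, with medians of -0.69 and -0.41. For the 10 H3 genes, which include the copies H3C14 and H3C15, the groups did not overlap, against 27% of all genes lower without overlap. H3C13 had -0.92 (SE 0.367, adjusted p 0.194), from 183 and 165 RPKM to 70.5 and 112 RPKM, and H3C1 had -0.53 (SE 0.188, adjusted p 0.16). H1 had a median of -0.69, and H2B -0.43 with 13 of 15 genes negative. H4 had a median of -0.14 with 9 of 12 negative, and 3 of its 12 genes were lower without overlap, near the 27% of all genes. H1-1 was the highest (1.01, SE 0.45, adjusted p 0.233), with 10 and 5 reads in EGF and 29 and 18 in cordycepin+EGF. The summed H1, H2A, H2B and H3 levels of the cordycepin libraries were all below those of the EGF libraries, with log2 ratios of -0.70, -0.49, -0.39 and -0.74.

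The difference between the lines in the cordycepin effect was negative for 37 of 56 members, against 48.8% of all genes, with a median of -0.28. No member passed the interaction test (0% of all genes did). At an unadjusted p under 0.05 there were 7 lower and 0 higher, against 10.5% and 10.9% of all genes. All 10 H3 genes were negative (median -0.85), and 8 of 12 H4 genes were positive (median 0.07). H2BC8 (-1.96, SE 0.363, adjusted p 0.122) and H2AC8 (-1.34, SE 0.257, adjusted p 0.122) were lowest, and with voom on the recovered reads they passed with adjusted p of 0.0215 and 0.0112, when 9.68% of all genes did. H4C5 was highest (1.34, SE 0.944, adjusted p 0.436). Leaving out WT cordycepin+EGF replicate 3 gave a median of -0.039, and leaving out replicate 2 of the AMPK KO group gave -0.12.

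The AMPK KO and WT cells were then compared to see which histone genes differed between the lines themselves. Under DMSO, 38 of 56 members were higher in AMPK KO cells, against 51% of all genes, with a median of 0.25 (all genes 0.01). At an unadjusted p under 0.05 there were 11 higher and 4 lower, against 12% and 9.29% of all genes. The AMPK KO libraries were above both WT libraries for 24 members, against 25.3% of all genes. The H3 genes had a median of 0.71 with 9 of 10 positive, and the H2B genes -0.17 with 6 of 15 positive. H2BC10 passed at an adjusted p under 0.05 (0.44% of all genes did) and fell, while voom called 7 members higher and 2 lower, and 8% of all genes. H3C14 had 227 and 343 RPKM in WT and 499 and 713 RPKM in AMPK KO cells (1.07, SE 0.33, adjusted p 0.134). The shallow WT DMSO replicate 3 takes part here. Without it the median was 0.33 with 5 members and 13.9% of all genes called, and without WT DMSO replicate 2 it was 0.24 with 2 members and 0.82% of all genes called. Without AMPK KO DMSO replicate 3 it was 0.11 and without replicate 2 of that group 0.36, with none called in either case.

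Over the 3 treatments together (6 libraries a line), 21 members were on the positive and 35 on the negative side, with a median of -0.06. At an adjusted p under 0.05 there were 4 members, when 4.34% of all genes passed. H2BC10, H2BC8 and H2AC8 were lower and H3C7 was higher in AMPK KO cells. For the first 3 all AMPK KO libraries were below all WT libraries, as for 1.01% of all genes. No member had all AMPK KO libraries above all WT libraries (1.65% of all genes did).

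H2BC10 (ENSG00000278588, GRCh38 chromosome 6, 26272931 to 26273412, plus strand), an H2B gene, was at or near 0 reads in AMPK KO cells. It had 5.61 and 9.79 RPKM in WT DMSO, 6.05 and 4.16 in WT EGF and 6.84 and 9.18 RPKM in WT cordycepin+EGF, on 19 to 95 reads. The AMPK KO libraries held 0 reads in 5 of 6 cases and 3 reads (0.45 RPKM) in EGF replicate 2. Against the level of 3 reads per library, its WT mean was at least 19.7-fold higher in DMSO and at least 21.3-fold higher in cordycepin+EGF. The log2 fold change over the 3 treatments was -3.69 (SE 0.201, adjusted p 6.63e-05), a value set in part by the pseudocount. It shares no 150-base window with another annotated histone transcript.

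H2AC8 (ENSG00000277075, chromosome 6, 26216921 to 26217437, plus strand) encodes H2A. It had 69.1 and 99.9, 61.2 and 68.7, and 75.6 and 74.6 RPKM in WT cells, and 51.4 and 46.1, 42.9 and 49, and 18.4 and 23.2 RPKM in AMPK KO cells. The log2 fold change between the lines was -1.03 (SE 0.105, adjusted p 0.00209). For cordycepin it was -1.09 (SE 0.182, adjusted p 0.049) in AMPK KO cells and in WT cells 0.26 (SE 0.182, adjusted p 0.492).

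H2BC8 (ENSG00000273802, chromosome 6, 26216200 to 26216688, minus strand) encodes H2B. It had 10.8 and 14.2, 11.1 and 12.4, and 11.6 and 19.5 RPKM in WT cells, and 6.64 and 8.31, 9.17 and 6.37, and 2.37 and 1.94 RPKM in AMPK KO cells, the last on 17 and 18 reads. The line difference was -1.28 (SE 0.148, adjusted p 0.00355). Cordycepin gave -1.58 (SE 0.257, adjusted p 0.0469) in AMPK KO cells and 0.38 (SE 0.257, adjusted p 0.467) in WT cells. The call of H2BC8 for cordycepin in AMPK KO cells held under 7 of 12 other settings (adjusted p 0.0253 to 0.1) and that of H2AC8 under 6 of 12 (0.0172 to 0.1). Both held with array weights and with voom, which called 5.41% and 5.39% of all genes, against 0.471% in the main fit. Both line differences held under all 11 settings that could be fitted.

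H3C7 (ENSG00000277775, chromosome 6, 26250142 to 26250635, minus strand), an H3 gene, went the other way. It had 1.78 and 5.03, 5.27 and 5.05, and 4.14 and 8.96 RPKM in WT cells and 13.4 and 25.6, 13.9 and 13.8, and 9.26 and 6.95 RPKM in AMPK KO cells. All 4 AMPK KO libraries without cordycepin were above all WT libraries, and AMPK KO cordycepin+EGF replicate 3 was below the highest WT library. The line difference was 1.38 (SE 0.263, adjusted p 0.0235), and under DMSO it was 2.40 (SE 0.455, adjusted p 0.0552). The call over the 3 treatments was lost in 7 of 12 fits that left out 1 library, with an adjusted p of at most 0.0755.

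**Figure D4:**
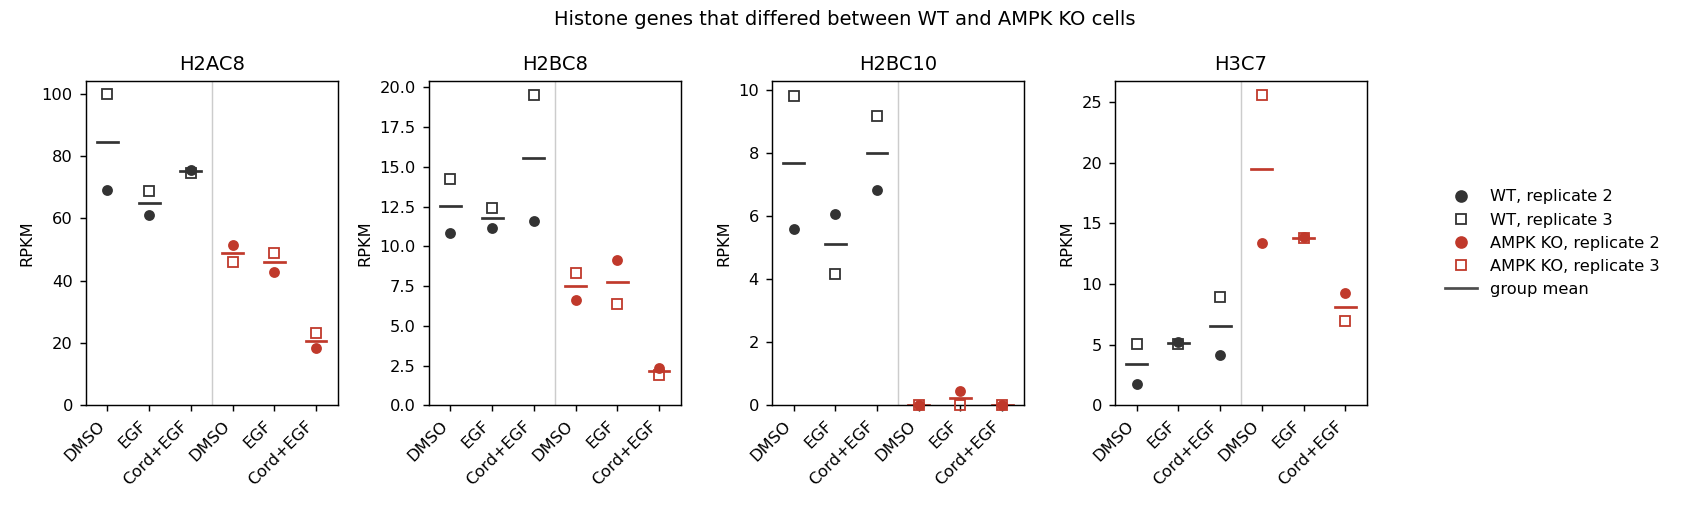
RPKM (vertical axes, starting at 0) of the 4 histone genes called between the lines, in the 12 libraries by group (horizontal axis, WT to the left of the grey line and AMPK KO to the right). H2BC10 is at 0 in 5 of 6 AMPK KO libraries, H2AC8 and H2BC8 are lowest in AMPK KO cordycepin+EGF, and H3C7 is highest in AMPK KO DMSO replicate 3 (25.6 RPKM).

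These 4 genes lie within 57213 bases of chromosome 6 (26216200 to 26273412) that hold 6 members. The members H3C6 and H1-3 lie between them and did not pass, with log2 fold changes between the lines of 0.08 (SE 0.0896, adjusted p 0.676) and 0.35 (SE 0.173, adjusted p 0.286). The histone genes H4C6, H4C7, H2BC9 and H3C8 also lie in this stretch but have no row, so whether they differed is not known. The neighbours on either side, H4C5 and H4C8, had -0.37 (SE 0.385, adjusted p 0.632) and 0.03 (SE 0.196, adjusted p 0.961). The other 37 members of chromosome 6 ranged from -0.63 (H2AC16) to 0.56 (H3C3), and none was called with limma. With voom, H2AC16 (-0.59, adjusted p 0.04) and H3C1 (0.38, adjusted p 0.0329), which lie outside the stretch, were called as well, when 10.4% of all genes were. The annotated genes ENSG00000291336 and ENSG00000291338 overlap all 4 genes called with limma, and also H3C6, H1-3, H4C5 and H4C8. They lie on the strand of H2BC10 and H2AC8 and opposite to H2BC8 and H3C7. The stretch was noted after the values were seen.

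**Figure D5:**
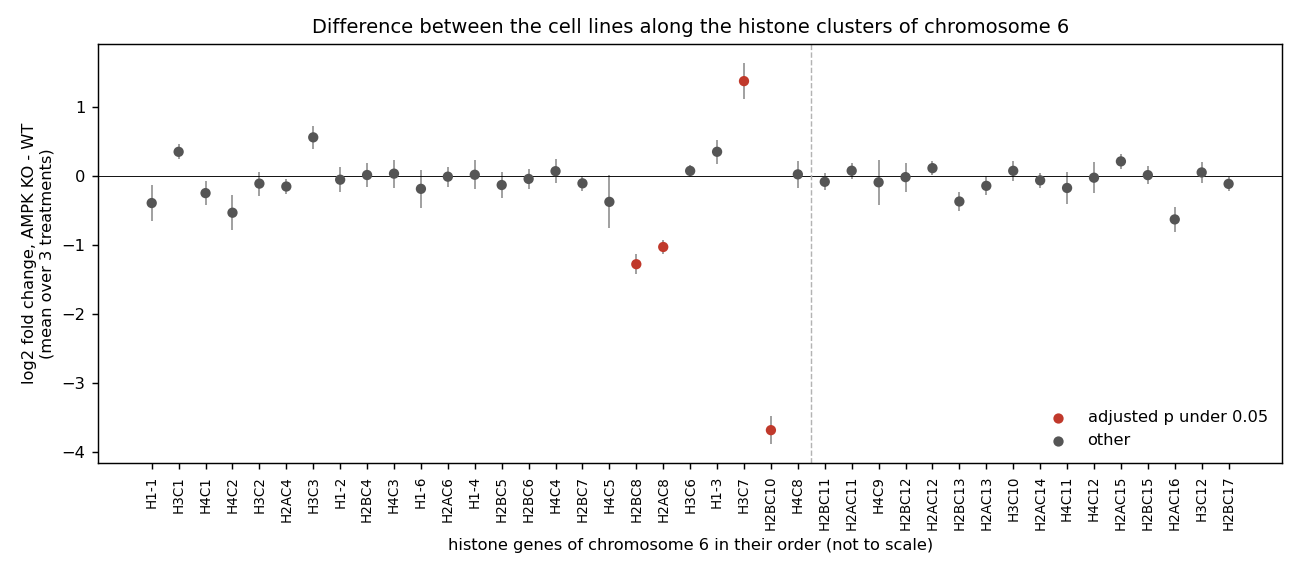
Log2 fold change between AMPK KO and WT cells over the 3 treatments (vertical axis, bars are SE) of the 41 histone genes of chromosome 6 in their order along it (horizontal axis, evenly spaced, dashed line between the clusters at 26 and 27 Mb). The 4 genes called, in red, stand within 6 neighbouring members, with H2BC10 lowest at -3.69. Histone genes that have no row are not shown.

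H2BC8 and H2AC8 are transcribed away from each other, with 232 bases between their starts. There were 9 such pairs of members, 169 to 318 bases apart. The log2 levels of H2BC8 and H2AC8 correlated over the 12 libraries with r = 0.93, and those of the other 8 pairs with -0.11 to 0.73. The RefSeq promoter of H2AC8 (GRCh38.p14, chr6:26216671-26216970, plus strand, 250 bases before to 50 after the start) holds both starts and is shown because the levels of its genes had the highest r of the pairs. Capitals mark the octamer ATTTGCAT, CCAAT and TATAAA on either strand.
H2AC8 promoter: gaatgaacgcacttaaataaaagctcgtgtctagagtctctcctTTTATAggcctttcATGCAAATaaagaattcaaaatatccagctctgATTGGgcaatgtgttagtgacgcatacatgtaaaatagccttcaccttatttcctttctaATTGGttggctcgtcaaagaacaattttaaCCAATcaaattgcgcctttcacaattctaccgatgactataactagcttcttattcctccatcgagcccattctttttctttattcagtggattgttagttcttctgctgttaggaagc
A RefSeq promoter was matched for 51 members. The octamer, known from H2B promoters, stood in 10 of 14 H2B and 8 of 13 H2A promoters and in none of H1, H3 or H4, against 1.77% of all 35116 promoters of that length. The windows of paired genes cover much of the same DNA, so a motif can be counted for each of them. The octamer was counted in this way for H2AC8 with H2BC8, H2AC6 with H2BC4, H2AC11 with H2BC11 and H2AC20 with H2BC21. CCAAT stood in all 41 promoters of H1, H2A, H2B and H3 genes and in 1 of 10 H4 promoters (34.6% of all), and TATAAA in 35 of 51 (11.5% of all). H2BC10 has the octamer and CCAAT but not TATAAA in this window.

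The features that the rule did not use were set beside the fold changes as medians, with no test. For cordycepin in AMPK KO cells, the 30 genes with the most frequent stem-loop had a median of -0.54, and the 12 H4 genes, which alone have the other stem, -0.14. Genes with single-exon transcripts only (41) had -0.43 and the 15 with spliced transcripts -0.17. For EGF in WT cells, the 12 H4 genes had 0.58 and the 18 genes with an octamer 0.15. Some of these 18 are paired genes counted for the same octamer. By cluster, the 11 members of the larger chromosome 1 cluster had 0.55 for EGF in WT and -0.51 for cordycepin in AMPK KO cells, the 25 of chromosome 6 near 26 Mb 0.32 and -0.33, and the 16 near 27 Mb 0.34 and -0.43. The H4 family and its stem hold the same 12 genes and cannot be told apart.

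Genes that act with these histones were described from 4 lists. Among 23 genes of histone mRNA synthesis, processing and decay, LSM10, a subunit of the U7 ribonucleoprotein, was the 1 gene called in any comparison. It was lower in AMPK KO cells over the 3 treatments (-0.68, SE 0.11, adjusted p 0.0124) although libraries of the lines overlapped. In that comparison 4.34% of all genes were called, a share that 1 of 23 genes does not stand out from. In AMPK KO cells with cordycepin this list had 15 of 23 genes on the negative side and a median of -0.24. SLBP, which binds the stem-loop, had 37 ± 1.46, 46.1 ± 7.15 and 47.9 ± 17.3 RPKM (SD, n = 2) in WT cells and 58.5 ± 15.4, 49.1 ± 4.46 and 32.5 ± 5.38 RPKM in AMPK KO cells. Its log2 fold change for cordycepin in AMPK KO cells was -0.55 (SE 0.25, adjusted p 0.243). NPAT, the activator at histone promoters, had 14.9 ± 4.01, 11.3 ± 0.381 and 12.7 ± 1.22 RPKM in WT cells and 16.9 ± 2.61, 18 ± 0.984 and 11.3 ± 0.0176 RPKM in AMPK KO cells, with -0.60 (SE 0.181, adjusted p 0.117) for cordycepin in AMPK KO cells.

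Of 23 genes induced for S phase, 20 were on the negative side for cordycepin in AMPK KO cells, with a median of -0.24, and none was called. MCM2, a subunit of the replicative helicase, was higher in AMPK KO cells over the 3 treatments (0.50, SE 0.0947, adjusted p 0.0235), also with overlap. It was the 1 gene of the 23 called in any comparison, when 4.34% of all genes were called over the 3 treatments. For EGF in WT cells the S phase list had a median of 0.01 and 12 of 23 genes positive, beside 0.35 for the replication-dependent histone genes. The 12 replication-independent histone genes had a median of 0.18 for EGF in WT cells and -0.20 for cordycepin in AMPK KO cells, with none called. The 8 histone chaperone genes had -0.01 and -0.30, with none called. Whether the levels of S phase genes take part in those of the histone genes was not tested.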

How the data were processed

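Paired 150-base reads were mapped to GRCh38.p13 and counted with Rsubread by the authors, who left out replicate 1 as an outlier and deposited the counts as RPKM. The table's 2 rows that name no gene were not used. GENCODE release 44 gave symbols, positions and exon lengths. Whole reads were recovered from each library's RPKM steps for 96.25% of the genes (within 0.05 of a read) and all 56 members. For H2BC4 the annotated length gave none, and the shortest length that did, 723 bases, was used.

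Each library was divided by its upper quartile, and log2(scaled RPKM + 0.5), which understates changes of low genes, was fitted for the 22067 genes whose mean RPKM reached 0.5. A single limma 3.58.1 fit (R 4.3.3, eBayes with trend, all 12 libraries, 6 residual degrees of freedom) gave 8 two-sided comparisons, with Benjamini-Hochberg adjustment over all genes. It was also run on simulated data with noise drawn independently for each gene and library. These hold no shift shared by the genes of a library, so they cannot show how the fit handles such shifts. The study describes the libraries of a group as biological replicates.

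Named were the 2 highest members of each family, members with an adjusted p under 0.05, the extremes of each comparison (mean RPKM of at least 1 in its libraries, no overlap), members with 0 reads in a group, SLBP, NPAT and list genes that passed. H3C3 for EGF in WT cells, H2AC4, H3C1, H3C13, H3C14 and the neighbours on chromosome 6 were chosen after their values were seen. The members and lists were chosen with earlier results of these data known. Replicate differences over all genes correlated with r of 0.136 to 0.314 among the WT groups and -0.122 to 0.031 among the AMPK KO groups. Between groups of different lines r ran from -0.081 to 0.322. Over the members alone r was -0.151 to 0.485 among the WT groups. Whether equal replicate numbers mark pairs was thus not settled, and the fit without a block is reported.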

Additional observations from a re-analysis of the deposited data

Results flagged for a closer look

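For 14 effects both replicates of one line moved one way and both of the other the opposite way, as the difference of AMPK KO minus WT in log2 fold change, and the difference itself was tested in the interaction. None passed adjustment over all genes. The same pattern was seen in 9 members and 10.5% of all genes for EGF, and in 5 members and 19.2% of all genes for cordycepin. For EGF the differences were -1.17 (H3C14), -1.17 (H2AC18), -1.12 (H2AC19), -1.03 (H3C15), -0.96 (H2AC25), -1.03 (H2AC4), -0.73 (H2AC11), -0.79 (H3C10) and -0.78 (H2AC15), with limma interaction adjusted p of 0.569 to 0.591. In these 9 the WT effect was positive and the AMPK KO effect negative. H3C14 with H3C15 and H2AC18 with H2AC19 are copies that share reads. For cordycepin the differences were -0.67 (H3C1), -1.11 (H3C3), -1.34 (H2AC8), -1.32 (H3C12) and -0.83 (H2BC12L), with adjusted p of 0.122 to 0.321. H3C3 and H3C12 had means of 0.914 and 0.584 RPKM.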

How the results depend on the processing

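For cordycepin in AMPK KO cells the 2 members called became 0 with a pseudocount of 0.1, with a minimum mean RPKM of 1 and with the compared groups only. These settings called 0.227%, 0.24% and 0% of all genes. The number was 1 with median-ratio scaling (0.353% of all genes) and without the eBayes trend (0.73%). It stayed 2 with array weights and with voom, which called 5.41% and 5.39% of all genes. With a replicate block, which pairs libraries by number, the count was 1 over all libraries and 0 within each line, and the block changed no other count of members with an adjusted p under 0.05. At an unadjusted p under 0.05 the block over all libraries gave 12 members higher and 3 lower, against 7 and 1, for EGF in WT cells. Of all genes, 6.64% were higher and 3.94% lower in that fit. For cordycepin in AMPK KO cells the block gave 14 members lower against 11, with 11.2% of all genes lower. For AMPK KO against WT in DMSO the 1 member called became 0 with the compared groups only and with array weights, and 9 with voom on recovered reads, which called 8% of all genes. For the difference in cordycepin effect the 0 called became 3 with the compared groups only, 3 with array weights and 2 with voom, which called 5.11%, 6.6% and 9.68% of all genes.

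Leaving out each library in turn gave 0 to 2 members called and medians of -0.58 to -0.17 for cordycepin in AMPK KO cells, 0 to 5 for AMPK KO against WT in DMSO, 0 to 3 (with 9.06% and 9.09% of all genes called where there were 3) and medians of -0.45 to -0.039 for the difference in cordycepin effect, and medians of -0.36 to 0.088 for cordycepin in WT cells and -0.26 to 0.026 for EGF in AMPK KO cells, which change sign. The causes were not tested. The line differences of H2BC10, H2BC8 and H2AC8 passed under all 11 settings and all 12 fits without 1 library, and that of H3C7 under all 11 settings and 5 of the 12 fits. Medians over the 42 members that share no read-length window, the 33 that overlap no annotated gene and the 44 with a mean of at least 10 RPKM, alternatives chosen after seeing the data, moved by less than the spread between replicates in every comparison. No fit on compared groups only was made over the 3 treatments. The shallowest library, 3732480 reads, limits low genes in WT DMSO.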
